A study of Chlamydomonas reinhardtii with 16 samples.

Results

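A set of 121 genes, out of 17301 in the deposited table of Chlamydomonas reinhardtii (0.699%), was at least 2-fold higher in the heme oxygenase mutant hmox1 than in wild type in each of 4 growth conditions. For each gene the mean of the 2 libraries of a group was taken and 1 RPKM was added, where RPKM divides the reads of a gene by its length and by the library size, and the hmox1 value was divided by the wild-type (WT) value. Genes were kept when that ratio was 2 or more in all 4 conditions, and left out when biliverdin raised them 2-fold or more in WT in the dark. The genes were thus chosen by the strain ratios of all 16 libraries and by the biliverdin ratio of dark WT, and these values are given below as a description without a test.

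The libraries came from hmox1 and from the 4A+ wild type, both grown without light on an acetate medium that held 0.5% methanol in every culture. Each strain was sampled in the light with 0.1 mM biliverdin IXα (BV), in the light without it, in the dark with BV and in the dark without it, which gives 8 groups of 2 libraries. Light lasted 30 min, was white, had an intensity of 150 µmol photons m-2 s-1 and was given to cultures grown in the dark. The labels give 1 mutant strain and do not describe its allele or say that the libraries of a group are separate cultures, so p-values measure only how far the libraries differ, and that spread can be technical.

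Heme oxygenase opens the heme ring to give biliverdin, the first bilin, and bilins in algae and plants are known as precursors of light-sensing chromophores and, in Chlamydomonas, as signals between chloroplast and nucleus. BV added to the medium supplies the product that a mutant without heme oxygenase does not make, so a transcript that depends on bilin can be compared in hmox1 with and without it. The genes described here were higher in the mutant whether or not BV was present and in the light as well as in the dark. The deposited identifiers carry no gene names, and the annotation used here (RefSeq, assembly Chlamydomonas_reinhardtii_v5.5) gives each of its 17742 genes only its locus tag as a symbol, so the genes appear below by identifier and without a role. Of the 121 genes, 86 matched a RefSeq locus. Without names the transcript of the heme oxygenase gene itself was not found, and the mutant label was not checked against it.

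Reads recovered from the RPKM steps gave 10213543 to 43414777 reads per library, the most in replicate 2 of hmox1 and the fewest in replicate 2 of WT, both from the light without BV. Over the 13972 genes with enough signal to be tested, the median log2 difference between hmox1 and WT was 0.29 in the light with BV, 0.29 in the light without BV, 0.12 in the dark with BV and 0.12 in the dark without BV. The same medians over the 121 genes were 1.66, 1.68, 1.61 and 1.76 in that order of conditions. Scaling each library by its median ratio to the other libraries brought the medians of all tested genes to between -0.04 and 0.02 and those of the 121 genes to 1.32, 1.49, 1.46 and 1.55.

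The ratio reached 2 in 631 genes (3.65%) in the light with BV, in 695 (4.02%) in the light without BV, in 302 (1.75%) in the dark with BV and in 337 (1.95%) in the dark without BV. In both light conditions it did so in 300 genes, in both dark conditions in 237 and in all 4 in 124. BV in dark WT removed 3 of these 124, Cre08.g372200, Cre16.g651050 and Cre03.g195300, whose BV ratios were 3.21, 2.32 and 2.07. The 121 genes that remained made up 17.4% of the genes past 2-fold in the light without BV and 35.9% of those in the dark without BV. In the other direction, 25 genes had a ratio of 0.5 or less in all 4 conditions. With median-ratio scaling the counts were 81 genes higher in hmox1 and 46 lower, before the removal for BV.

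The lowest ratios that were kept belonged to Cre12.g553350 at 2.00, Cre17.g714800 at 2.01 and Cre06.g260650 at 2.02, each in the dark with BV. Just outside lay Cre18.g751250 at 1.99 in the light without BV, and Cre13.g599850 and Cre18.g747850, both at 1.98 in the dark with BV. Cre17.g714800 averaged 3.63 RPKM in hmox1 and 1.31 RPKM in WT, and Cre13.g599850, on the other side of the line, averaged 3.07 RPKM in hmox1 and 1.05 RPKM in WT. Genes on either side of the line were thus alike in level and ratio. Of the set, 56 of the 121 genes had a smallest ratio below 2.5, while 21 stayed at 4 or more in every condition and 1 stayed at 10 or more.

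Both hmox1 libraries lay above both WT libraries in each of the 4 conditions for all 121 genes, against 23.8% of all genes, a separation that the choice of genes largely fixes. In 108 of the 121 genes the lowest of the 8 hmox1 libraries was also above the highest of the 8 WT libraries, whatever the condition. The choice largely fixes this count too, its share over all genes was not counted, and nothing is read from it. As RNA came from whole cultures, a higher level per cell and a larger share of cells with the transcript cannot be told apart.

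**Figure D1:**
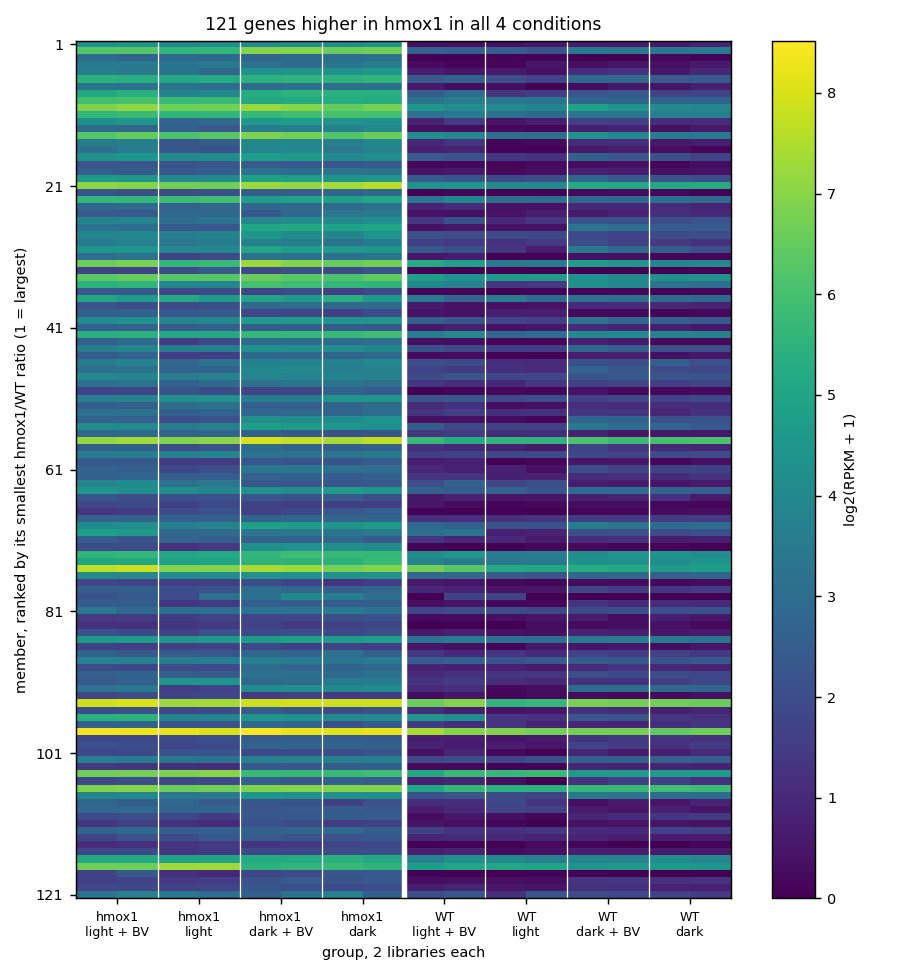
Levels of the 121 genes (rows, ranked from the top by their smallest hmox1/WT ratio) in the 16 libraries (columns, 2 per group), coloured by log2(RPKM + 1), with hmox1 on the left and WT on the right of the thick line. The hmox1 columns are brighter than the WT columns in each condition, and the rows range from levels near 2 RPKM to above 300 RPKM in hmox1.

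The median gene of the set averaged 7.76 RPKM in hmox1 and 1.23 RPKM in WT in the light with BV, 5.66 RPKM in hmox1 and 1.05 RPKM in WT in the light without BV, 8.12 RPKM in hmox1 and 1.78 RPKM in WT in the dark with BV, and 9.06 RPKM in hmox1 and 1.59 RPKM in WT in the dark without BV. Over all genes the medians in the dark without BV were 3.75 RPKM in hmox1 and 3.40 RPKM in WT. The median of the set was above that of all genes in hmox1 and below it in WT, a split that the choice of genes favours. Together they took 0.837% and 0.879% of the reads of hmox1 in the light with BV, 0.661% and 0.689% in the light without BV, 0.930% and 0.889% in the dark with BV and 0.848% and 0.955% in the dark without BV. In WT their share was 0.218% and 0.229%, 0.151% and 0.153%, 0.246% and 0.224%, and 0.210% and 0.211% in the same order of conditions. The median recovered length was 2371 nt, close to the 2244 nt of all genes with reads.

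The 10 genes with the largest smallest ratio, among those with at least 20 reads in every hmox1 library, show how the set looks at its top. Cre13.g606650 had 18.5 and 20.2 RPKM in hmox1 in the light with BV, 15.7 and 18.1 in the light without it, 16.4 and 18.0 in the dark with BV and 16.9 and 19.8 in the dark without it. In WT it had 0.281 and 0.270 RPKM in the light with BV, 0.292 and 0.474 in the light without it, 0.558 and 0.607 in the dark with BV and 0.514 and 0.782 in the dark without it. All 8 hmox1 libraries were thus above 15 RPKM and all 8 WT libraries below 1 RPKM, and the ratio was 15.98, 12.9, 11.5 and 11.7 in the same order. It was the gene that stayed at 10-fold or more in every condition. Its neighbour in the order of identifiers, Cre13.g606675, had 10.6 and 10.3 RPKM in hmox1 in the light with BV, 8.83 and 10.03 in the light without it, 8.08 and 6.84 in the dark with BV and 9.09 and 11.3 in the dark without it. In WT that gene had 0.187 and 0.0948 RPKM in the light with BV, 0.0984 and 0.404 in the light without it, 0.280 and 0.426 in the dark with BV and 0.307 and 0.500 in the dark without it. Its ratios of 6.25 to 10.05 were a little below those of Cre13.g606650, and whether the pair shares reads cannot be told from the table.

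Cre12.g546550, on chromosome 12, was the most abundant of these 10 genes after Cre17.g710300. It had 76.2 and 76.5 RPKM in hmox1 in the light with BV, 48.5 and 48.9 in the light without it, 122 and 122 in the dark with BV and 97.4 and 101 in the dark without it. WT showed 5.40 and 4.90 RPKM in the light with BV, 4.61 and 3.43 in the light without it, 10.3 and 9.84 in the dark with BV and 9.53 and 10.1 in the dark without it. Light lowered it in both strains, as given below, and the ratio was 12.6, 9.90, 11.1 and 9.26. Cre17.g710300 had 117 and 136 RPKM in hmox1 in the light with BV, 97.5 and 103 in the light without it, 145 and 128 in the dark with BV and 89.6 and 109.8 in the dark without it. The WT libraries gave 21.3 and 17.3 RPKM in the light with BV, 15.1 and 13.5 in the light without it, 29.5 and 20.5 in the dark with BV and 15.9 and 14.4 in the dark without it. Its ratios lay between 5.30 and 6.63, with no overlap between the strains.

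Cre10.g452250 was close to silent in WT. It had 6.97 and 5.65 RPKM in hmox1 in the light with BV, 6.59 and 6.30 in the light without it, 5.62 and 6.51 in the dark with BV and 7.52 and 7.62 in the dark without it. Wild type had 0.0219 and 0 RPKM in the light with BV, 0.0604 and 0.0473 in the light without it, 0.0418 and 0.0145 in the dark with BV and 0.140 and 0.0585 in the dark without it. Summed over 8 libraries each, these were 2430 reads in hmox1 and 15 in WT, a ratio of library shares of 155.6 (exact binomial 95% interval 94.1 to 278, counting error only). The offset of 1 RPKM holds the ratio used for the choice at 6.87 to 7.80 for such a gene.

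Cre08.g364765 and the adjacent identifier Cre08.g364750 had higher levels in the dark than in the light in hmox1. Cre08.g364765 had 11.6 and 9.44 RPKM in hmox1 in the light with BV, 8.75 and 6.08 in the light without it, 18.7 and 20.8 in the dark with BV and 18.8 and 23.1 in the dark without it, and its WT libraries ran from 0.299 to 1.32 RPKM. Cre10.g463370 had 42.0 and 39.9 RPKM in hmox1 in the light with BV, 34.4 and 37.0 in the light without it, 42.5 and 45.9 in the dark with BV and 43.4 and 47.7 in the dark without it, against 2.30 to 6.73 RPKM in the WT libraries. Cre05.g240600 was flatter, with 6.89 to 8.70 RPKM in the hmox1 libraries and 0.0444 to 0.687 RPKM in the WT libraries. None of these genes had an hmox1 library at or below its highest WT library.

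Cre17.g718134 had 34.7 and 41.3 RPKM in hmox1 in the light with BV, 13.3 and 15.2 in the light without it, 37.5 and 45.1 in the dark with BV and 42.6 and 41.1 in the dark without it. In WT it had 4.65 and 7.48 RPKM in the light with BV, 1.46 and 1.84 in the light without it, 3.84 and 4.07 in the dark with BV and 2.33 and 2.30 in the dark without it. Its ratio was 5.52 in the light with BV, 5.77 in the light without it, 8.54 in the dark with BV and 12.9 in the dark without it, and the lowest hmox1 level was that in the light without BV. Cre02.g116500 kept the steadiest ratio of the 10, with 60.3 and 64.4 RPKM in hmox1 in the light with BV, 52.5 and 54.0 in the light without it, 34.8 and 35.8 in the dark with BV and 37.4 and 37.0 in the dark without it. WT gave 8.65 and 11.2 RPKM in the light with BV, 9.22 and 8.62 in the light without it, 5.78 and 5.66 in the dark with BV and 5.63 and 5.76 in the dark without it. Both strains were higher in the light, and the ratio stayed between 5.41 and 5.79.

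**Figure D2:**
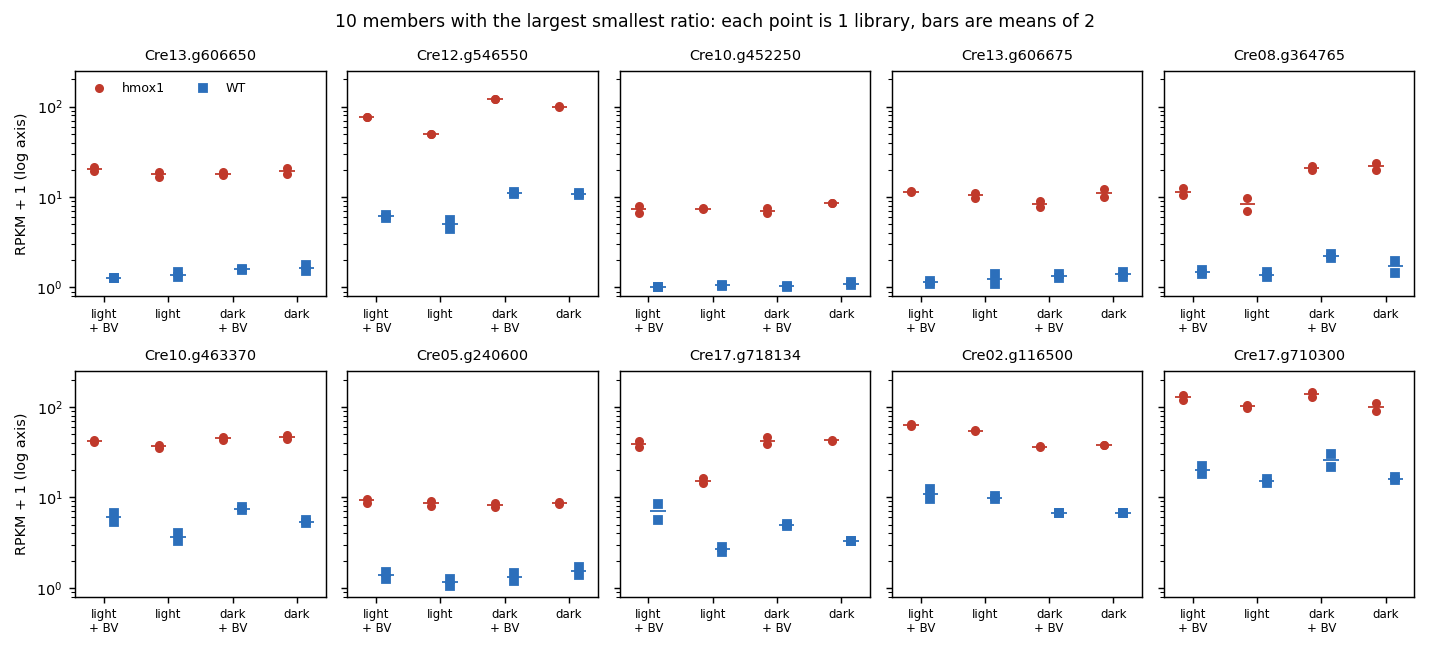
RPKM + 1 on a log axis in each library of the 10 genes with the largest smallest ratio, with hmox1 as circles left of WT as squares in each condition, and short bars at the mean of the 2 libraries. The strains do not overlap in any panel, and Cre10.g452250 and Cre13.g606650 sit near the floor of the axis in WT.

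The set held genes that WT hardly expressed and genes that WT expressed at a lower level than hmox1. In 31 of the 121 genes (25.6%) every WT library was below 1 RPKM, and these genes entered the tests below only through hmox1. That share was not counted over all genes, whose lower quartile in WT was 0.36 RPKM in the light with BV and 0.23 RPKM without it. In the dark it was 1.04 RPKM with BV and 0.99 RPKM without it. The 31 genes are thus not read as a trait of the set. Counted in reads over the 8 libraries of each strain, the largest ratio of library shares was that of Cre03.g205500, with 1443 reads in hmox1 and 3 in WT, a ratio of 462 (exact binomial 95% interval 158 to 2242, counting error only). Cre07.g339300 followed Cre10.g452250 with 3185 reads in hmox1 and 25 in WT, a ratio of 122 (82.7 to 189), and Cre08.g368850 had 641 reads in hmox1 and 7 in WT, a ratio of 87.9 (42.4 to 219.6). In all, 15 genes had a ratio of 20 or more on this measure, the median was 4.73, and 0 of the 121 genes were without any read in WT. The median gene had 3757 reads in hmox1 and 707 in WT. The strain difference was used to choose these genes, so the intervals describe the summed reads and do not test it.

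Cre03.g205500 also shows how sharply a transcript can differ from its neighbour. It had 2.16 and 2.29 RPKM in hmox1 in the light with BV, 2.89 and 4.36 in the light without it, 2.80 and 3.23 in the dark with BV and 2.88 and 3.45 in the dark without it. The WT values were 0.0180 and 0.0160 RPKM in the light with BV, 0 and 0 in the light without it, 0 and 0 in the dark with BV and 0.0230 and 0 in the dark without it. The next gene in the RefSeq order on chromosome 3, Cre03.g205450, is also in the set and was expressed in both strains, with 5.12 and 5.58 RPKM in hmox1 in the light with BV, 4.67 and 4.82 in the light without it, 5.14 and 5.51 in the dark with BV and 4.56 and 5.42 in the dark without it and 0.685 to 1.51 RPKM in the WT libraries. The first of the pair was thus at or near 0 in the WT libraries, in which the second was readily counted.

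At the other end of the set, 23 genes averaged 10 RPKM or more in at least 1 WT group, and 39 averaged 10 RPKM or more in each hmox1 group. The highest level was that of Cre09.g396100, on chromosome 9, with 326 and 315 RPKM in hmox1 in the light with BV, 302 and 268 in the light without it, 366 and 305 in the dark with BV and 280.0 and 308 in the dark without it. In WT it had 170.5 and 126 RPKM in the light with BV, 119 and 106 in the light without it, 106 and 105 in the dark with BV and 84.9 and 98.4 in the dark without it. Its ratio was 2.16 in the light with BV and 3.18 in the dark without BV, so the most abundant gene was not among those with the largest ratios. Cre16.g686750 had the smallest ratio of library shares, 2.25, from 98228 reads in hmox1 and 41929 in WT. A few genes rest on little data: 4 had fewer than 20 reads in some hmox1 library, and 2 had a recovered length under 200 nt, Cre05.g234900 with 18 nt and Cre12.g553350 with 103 nt, for which few reads make a high RPKM.

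The ratio was of similar size in all 4 conditions for most genes, which the choice favours, since it left out genes with a ratio below 2 in any condition. Its median was 3.15 in the light with BV (2.05 to 15.98), 3.12 in the light without BV (2.03 to 12.9), 3.06 in the dark with BV (2.00 to 17.3) and 3.38 in the dark without BV (2.07 to 16.8). In 65 of the 121 genes the largest and the smallest ratio were within 1.5-fold of each other. Cre16.g683300 had the narrowest range, with ratios of 2.39, 2.38, 2.32 and 2.31, from 9.38 and 6.61 RPKM in hmox1 in the light with BV, 7.80 and 7.47 in the light without it, 8.55 and 8.54 in the dark with BV and 10.3 and 7.54 in the dark without it and 2.40 to 3.47 RPKM in the WT libraries. The ratio was largest in the light without BV in 44 genes, in the dark without BV in 41, in the light with BV in 24 and in the dark with BV in 12. The ratio was larger in the dark than in the light in 54 of 121 genes with BV and in 59 of 121 without it.

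In 3 genes the ratio ranged over more than 4-fold. Cre07.g339300, on chromosome 7, had 2.88 and 2.89 RPKM in hmox1 in the light with BV, 1.40 and 1.66 in the light without it, 18.2 and 18.8 in the dark with BV and 17.2 and 16.3 in the dark without it. In WT it never passed 0.164 RPKM. Its ratio was 3.73 in the light with BV, 2.37 in the light without it, 17.3 in the dark with BV and 16.8 in the dark without it, with all 4 dark hmox1 libraries far above all 4 light ones and the WT libraries near 0 throughout. Cre17.g709973 had 4.18 and 5.06 RPKM in hmox1 in the light with BV, 20.6 and 21.9 in the light without it, 6.16 and 6.83 in the dark with BV and 10.1 and 10.8 in the dark without it. Wild type showed 1.44 and 1.67 RPKM in the light with BV, 1.18 and 0.965 in the light without it, 1.34 and 1.40 in the dark with BV and 1.96 and 2.48 in the dark without it. Its ratio was 10.7 in the light without BV and between 2.20 and 3.55 in the other conditions. The third such gene was Cre05.g234900, whose 18 nt make its values those of a few reads.

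**Figure D3:**
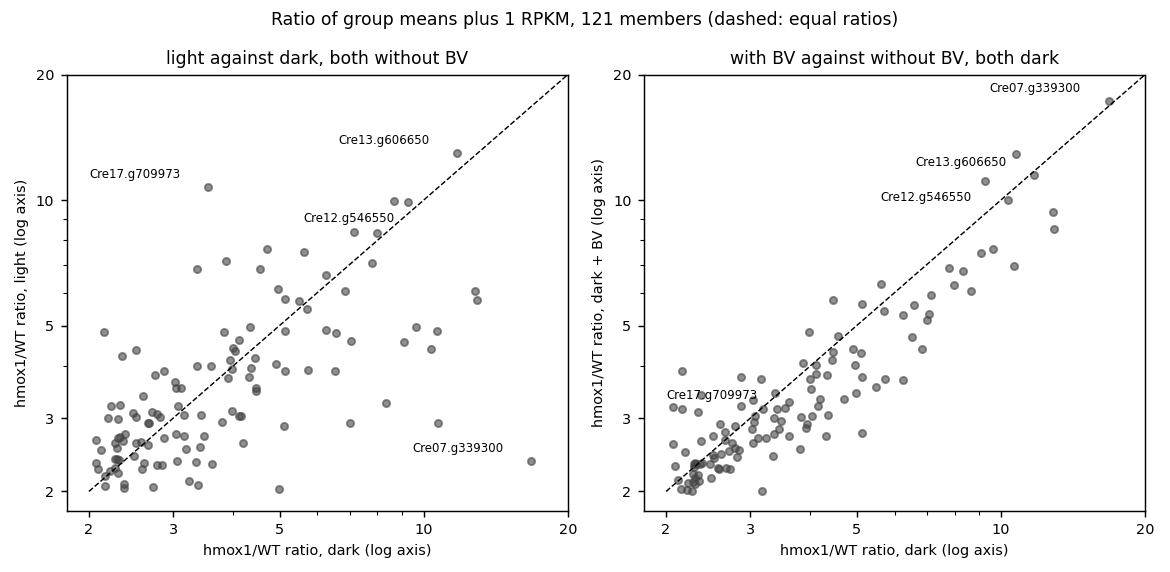
Ratio of hmox1 to WT (group means plus 1 RPKM, log axes) for the 121 genes, in the light against the dark without BV on the left, and with BV against without BV in the dark on the right. Most points lie near the dashed line of equal ratios, Cre07.g339300 lies far below it on the left with 2.37 in the light and 16.8 in the dark, and Cre17.g709973 lies above it.

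Set against WT without BV, hmox1 with BV was 2-fold or more higher for 119 of the 121 genes in the light (median ratio 3.94, range 1.93 to 18.7) and for 117 in the dark (median 3.31, range 1.87 to 18.4). The strain ratio was smaller with BV than without it in 66 of 121 genes in the light and in 89 of 121 in the dark. The choice of genes, which required hmox1 with BV to be at least 2-fold above WT with BV, largely fixes the counts past 2-fold, and nothing is read from them.

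Within each strain, light was compared with dark by limma on log2(RPKM + 1), with p-values adjusted over all 13972 genes tested and genes called at an adjusted p under 0.05. All 121 genes passed the filter on low values. Differences are light minus dark, as log2 of RPKM + 1 with their standard error (SE), and they were not used to choose the genes, although the same libraries were.

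In hmox1 without BV, light called 13 of the 121 genes higher (10.7%) and 70 lower (57.9%), where 21.3% of all tested genes were called higher and 55.2% lower. The median log2 difference was -0.40 in the 121 genes and -0.35 in all tested genes. Cre07.g339300 fell the most, to 1.40 and 1.66 RPKM in the light, against 17.2 and 16.3 RPKM in the dark, a log2 difference of -2.81 ± 0.10 (limma adjusted p = 3.1e-13). Cre02.g129500 had 4.34 and 3.96 RPKM in the light and 29.8 and 30.9 RPKM in the dark (-2.61 ± 0.10, limma adjusted p = 1.2e-12). Cre14.g611786 had 1.94 and 2.31 RPKM in the light and 14.8 and 16.4 RPKM in the dark (-2.41 ± 0.11, limma adjusted p = 7.0e-12), and Cre01.g004157 had 3.05 and 3.48 RPKM in the light and 16.6 and 18.6 RPKM in the dark (-2.12 ± 0.10, limma adjusted p = 1.2e-11). Each of these 4 genes was far lower in both light libraries than in both dark libraries. On this scale 19 genes in all fell 2-fold or more. The share of all tested genes that did so was not counted, so 19 is not read as a trait of the set.

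In hmox1 without BV 2 genes rose 2-fold or more in the light, again without a count over all tested genes. Cre12.g550400 had 159 and 158 RPKM in the light and 53.7 and 46.2 RPKM in the dark (1.65 ± 0.11, limma adjusted p = 9.9e-10), and Cre13.g596800 had 113 and 128 RPKM in the light and 54.0 and 58.9 RPKM in the dark (1.08 ± 0.15, limma adjusted p = 1.4e-05). Cre17.g709973 (0.96 ± 0.11) and Cre09.g393850 (0.96 ± 0.17) rose by nearly as much. The division between higher and lower depended on the scaling: median-ratio scaling gave 32 genes higher and 36 lower, and quantile scaling gave 25 higher and 55 lower.

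In hmox1 with BV, light called 17 genes higher (14.05%) and 44 lower (36.4%), against 20.4% and 40.9% of all tested genes. The median log2 difference was -0.14 in the 121 genes and -0.16 in all tested genes. Cre07.g339300 again fell the most, with 2.88 and 2.89 RPKM in the light and 18.2 and 18.8 RPKM in the dark (-2.32 ± 0.10, limma adjusted p = 8.6e-12), followed by Cre02.g129500 (-1.98 ± 0.10), Cre01.g004157 (-1.52 ± 0.10) and Cre16.g676150 (-0.94 ± 0.11). Cre09.g393850 rose the most, with 13.7 and 16.7 RPKM in the light and 3.99 and 3.73 RPKM in the dark (1.74 ± 0.17, limma adjusted p = 3.6e-07), followed by Cre01.g000150 (1.38 ± 0.11), Cre12.g550400 (1.15 ± 0.11) and Cre03.g179500 (1.07 ± 0.10). With median-ratio scaling 25 genes were higher and 21 lower, and with quantile scaling 22 and 42.

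In WT without BV, light called 11 genes higher (9.09%) and 63 lower (52.1%), against 20.9% and 63.1% of all tested genes. The median log2 difference was -0.30 in the 121 genes and -0.57 in all tested genes, and 31 of the 121 were below 1 RPKM in every WT library. Cre14.g611786 fell the most, with 0.135 and 0.247 RPKM in the light and 6.71 and 5.91 RPKM in the dark (-2.62 ± 0.11, limma adjusted p = 1.3e-12). Cre02.g129500 (-2.06 ± 0.10), Cre01.g004157 (-1.92 ± 0.10) and Cre02.g084400 (-1.78 ± 0.11) came next. Cre09.g393850 rose the most, with 2.46 and 3.20 RPKM in the light and 0.419 and 0.520 RPKM in the dark (1.38 ± 0.17, limma adjusted p = 1.6e-06), ahead of Cre04.g222350 (1.08 ± 0.13), Cre13.g596800 (1.07 ± 0.15) and Cre03.g151950 (0.97 ± 0.22). Scaling mattered most here: 32 genes were higher and 27 lower with median-ratio scaling, and 58 were higher and 19 lower with quantile scaling.

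In WT with BV, light called 19 genes higher (15.7%) and 46 lower (38.0%), against 23.4% and 55.5% of all tested genes. The median log2 difference was -0.12 in the 121 genes and -0.37 in all tested genes. Cre02.g129500 had 0.303 and 0.477 RPKM in the light and 8.92 and 7.60 RPKM in the dark (-2.73 ± 0.10, limma adjusted p = 4.9e-13), and Cre01.g004157 (-2.36 ± 0.10), Cre14.g611786 (-1.91 ± 0.11) and Cre02.g106250 (-1.17 ± 0.10) fell as well. Cre03.g179500 had 21.1 and 17.4 RPKM in the light and 3.76 and 3.75 RPKM in the dark (2.09 ± 0.10, limma adjusted p = 9.7e-12), and Cre09.g393850 (1.73 ± 0.17), Cre16.g657200 (1.30 ± 0.12) and Cre01.g000150 (1.18 ± 0.11) rose as well. The scaling alternatives gave 40 higher and 21 lower (median ratio) and 53 higher and 18 lower (quantile). The 2 WT libraries in the light with BV differed more from each other than those of the other groups, with a median SD of 0.137 over the 121 genes on the log2 scale, against 0.065 to 0.112 elsewhere.

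Some genes of the set were called in the same direction in each strain, with and without BV. In all 4 light comparisons 25 genes were called lower, 20.7% of the set against 37.1% of all tested genes, and 6 were called higher, 4.96% against 14.3%. The 6 were Cre12.g550400, Cre13.g596800, Cre09.g393850, Cre02.g116500, Cre26.g774050 and Cre01.g030000. Among the 25 were Cre12.g546550, Cre02.g129500, Cre14.g611786, Cre01.g004157 and Cre02.g084400, the last with a WT difference with BV (-0.27 ± 0.11) whose libraries overlapped and which turned with median-ratio scaling. Their strain ratios were of the usual size for the set, with a median in the light without BV of 3.03 for the 25 and 3.12 for the 6. These counts and medians are on the deposited scaling. Several other genes of the 25 also turned in some light comparison with median-ratio or quantile scaling, and some of these were then called higher.

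The genes that WT hardly expressed were at the floor of the log2(RPKM + 1) scale in WT, which limits how far they could fall there, and their WT calls are not compared with those in hmox1. Of the 31 genes below 1 RPKM in every WT library, 20 were called in hmox1 without BV (2 higher and 18 lower). Of the other 90 genes, 63 were called in hmox1 (11 higher and 52 lower) and 66 in WT (10 higher and 56 lower). Over all tested genes, light without BV called 21.3% higher and 55.2% lower in hmox1, and 20.9% higher and 63.1% lower in WT. The counts are not read as a trait of either class. Cre07.g339300 is one of the 31, with 0 and 0.139 RPKM in the light and 0.0825 and 0.0288 RPKM in the dark in WT, so that its light response can be read in hmox1 alone. The difference between the strains in light response is the same quantity as the difference between light and dark in the strain ratio, which took part in the choice, and it was not tested.

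Without BV, 49 of the 121 genes were called lower in both strains, 8 higher in both and 2 higher in hmox1 and lower in WT, Cre17.g709973 and Cre10.g431250, whose WT direction turned with quantile scaling. Joint calls were not counted over all tested genes, of which 55.2% were called lower in hmox1 and 63.1% in WT. The joint counts are thus not read as a trait of the set. Across the 121 genes the light differences of the strains had a Pearson correlation of 0.62 without BV and 0.70 with BV, against 0.93 and 0.91 across all tested genes. The 121 include the 31 genes below 1 RPKM in every WT library, where the floor limits the WT difference. How well the strains agree is therefore not read from these values. They are descriptions across genes, which are not independent replicates and share the same libraries.

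**Figure D4:**
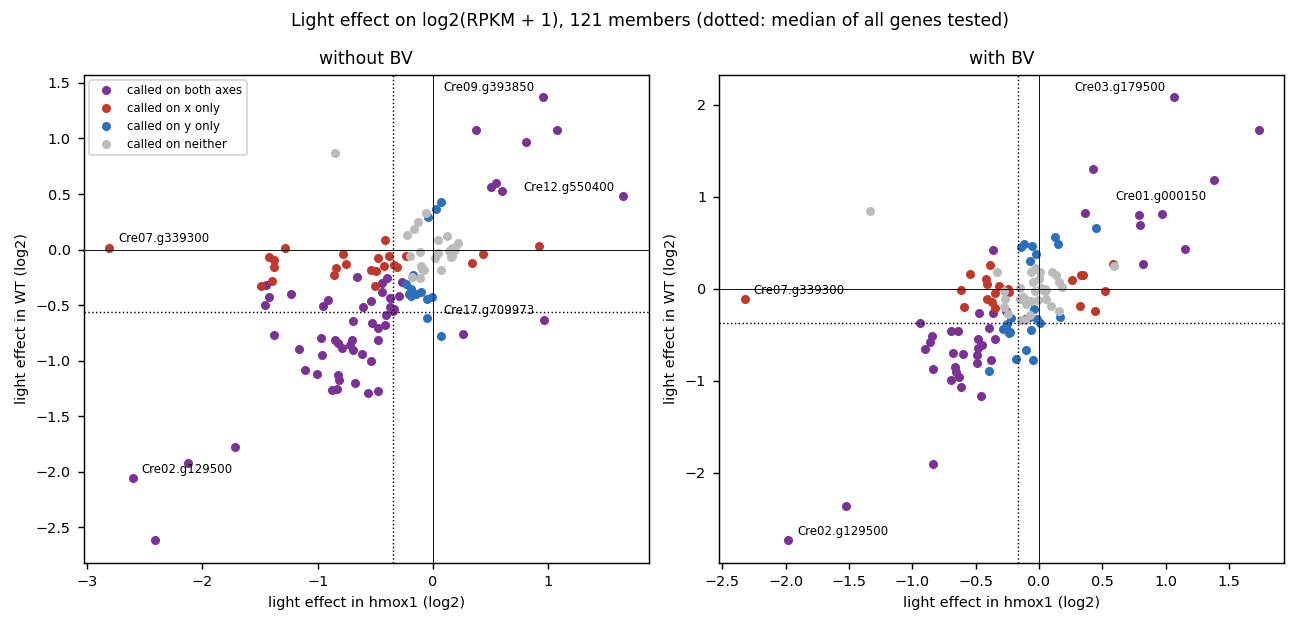
Light effect (light minus dark, log2 of RPKM + 1) in hmox1 on the x axis and in WT on the y axis for the 121 genes, without BV on the left and with BV on the right, coloured by which of the axes passed limma's adjusted p under 0.05; dotted lines mark the median of all tested genes. Cre02.g129500 falls in both strains, Cre09.g393850 rises in both, and Cre07.g339300 falls in hmox1, with WT at the floor of the scale.

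Genes with no called light or BV effect in any of the 7 comparisons numbered 14, 11.6% of the set against 5.39% of all tested genes. Cre10.g452250, Cre17.g710300 and Cre16.g683300 are among them, with hmox1 levels of 5.62 to 7.62 RPKM, 89.6 to 145 RPKM and 6.61 to 10.3 RPKM over the 8 libraries. Both short genes, Cre05.g234900 and Cre12.g553350, are also among the 14. A p that misses the threshold does not show that these genes were constant.

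BV was compared with no BV in hmox1 in the dark, in hmox1 in the light and in WT in the light. The fourth such comparison, in dark WT, was used to choose the genes, whose BV ratio there ran from 0.623 to 1.99 with a median of 1.07.

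In hmox1 in the dark, BV called 0 of the 121 genes higher and 5 lower (4.13%), against 0.193% and 0.129% of all tested genes. The limma count at an unadjusted p under 0.05 was 20 genes higher and 16 lower. Over the whole table only 18 genes were called lower, so the 5 are 27.8% of them. The comparison shares the dark hmox1 libraries with the choice of genes, and the 337 genes at least 2-fold higher in hmox1 in the dark without BV held 10 of the 18 genes called lower and 6 of the 27 called higher. The dark hmox1 libraries without BV enter both the strain ratio and this comparison. On group means plus 1 RPKM, the BV ratio of dark hmox1 is fixed by the dark strain ratios and the BV ratio of dark WT. The choice of genes used each of these. The counts beside all genes, and the differences and p-values of the 5 genes below, are thus a description. They do not test BV in dark hmox1, and nothing is read from them.

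Cre02.g102050, on chromosome 2, had 11.1 and 11.3 RPKM in dark hmox1 with BV and 20.5 and 20.9 RPKM without it, a log2 difference of -0.83 ± 0.11 (limma adjusted p = 8.8e-04). WT had 2.11 and 2.48 RPKM with BV and 2.28 and 2.68 RPKM without it. The strain ratio was 3.71 with BV and 6.24 without it, and the choice of genes required at least 2 in both. Cre09.g398450 had 2.46 and 2.40 RPKM with BV and 5.27 and 4.61 RPKM without it (-0.79 ± 0.10, limma adjusted p = 7.2e-04), and its WT libraries ran from 0.0343 to 0.327 RPKM. Cre05.g231850 had 2.09 and 2.60 RPKM with BV and 4.07 and 4.83 RPKM without it (-0.71 ± 0.11, limma adjusted p = 0.0032).

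Cre14.g613800 had 4.04 and 6.21 RPKM with BV and 9.43 and 9.82 RPKM without it (-0.82 ± 0.14, limma adjusted p = 0.013), and Cre17.g709973 had 6.16 and 6.83 RPKM with BV and 10.1 and 10.8 RPKM without it (-0.61 ± 0.11, limma adjusted p = 0.023). In none of the 5 genes did the libraries with and without BV overlap. The share of all tested genes without such overlap was not counted, and nothing is read from this separation. The calls were not equally firm: with a pseudocount of 0.1 RPKM in place of 1 the count of members called was 1, and leaving out 1 library at a time left 2 to 4 calls, with 2 calls without hmox1 in the dark with BV replicate 1, 3 without hmox1 in the dark without BV replicate 1 and 2 without replicate 2 of that group.

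All 5 genes were also lower with BV in hmox1 in the light. Cre17.g709973 had 4.18 and 5.06 RPKM with BV and 20.6 and 21.9 RPKM without it (-1.99 ± 0.11, limma adjusted p = 1.5e-09), the largest fall of any member in a BV comparison. Cre05.g231850 (-0.66 ± 0.11), Cre02.g102050 (-0.54 ± 0.11), Cre14.g613800 (-0.50 ± 0.14) and Cre09.g398450 (-0.35 ± 0.10) passed with limma adjusted p values of 1.4e-04, 9.1e-04, 0.011 and 0.011 in that order. In WT in the light none of the 5 was called lower with BV, and Cre17.g709973 (0.30 ± 0.11) and Cre02.g102050 (0.29 ± 0.11) were called higher, calls that median-ratio and quantile scaling did not keep.

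The commoner direction in the light was up. In hmox1 BV called 43 genes higher (35.5%) and 10 lower (8.26%), against 26.3% and 11.2% of all tested genes, with a median log2 difference of 0.22 in the 121 genes and 0.13 in all tested genes. Cre01.g000150 had 27.1 and 23.3 RPKM with BV and 6.29 and 6.60 RPKM without it (1.81 ± 0.11, limma adjusted p = 2.1e-09). Cre14.g611786 (1.69 ± 0.11), Cre03.g179500 (1.63 ± 0.10) and Cre02.g084400 (1.61 ± 0.11) came next. In all 13 genes rose 2-fold or more, a count that was not made over all tested genes and is not read as a trait of the set. Cre12.g550400 fell, with 103 and 98.7 RPKM with BV and 159 and 158 RPKM without it (-0.65 ± 0.11, limma adjusted p = 2.4e-04). Median-ratio scaling gave 28 genes higher and 16 lower, and quantile scaling 34 and 13.

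In WT in the light BV called 51 genes higher (42.1%) and 2 lower (1.65%), against 32.7% and 13.0% of all tested genes, with medians of 0.26 in the 121 genes and 0.13 in all tested genes. Cre03.g179500 had 21.1 and 17.4 RPKM with BV and 1.44 and 1.24 RPKM without it (3.11 ± 0.10, limma adjusted p = 8.3e-13), the largest difference of any member in the 7 comparisons. In hmox1 the same gene had 41.2 and 44.6 RPKM with BV and 12.9 and 13.4 RPKM without it, so its strain ratio was 2.17 with BV and 6.05 without it. Cre02.g084400 averaged 13.7 ± 2.45 RPKM with BV and 1.60 ± 0.0818 RPKM without it (SD, 2 libraries each; log2 difference 2.49 ± 0.11 SE, limma adjusted p = 9.0e-11), and Cre01.g000150 had 7.94 and 9.09 RPKM with BV and 0.683 and 0.722 RPKM without it (2.48 ± 0.11, limma adjusted p = 3.8e-11). The 2 genes called lower were Cre04.g222350 (-0.91 ± 0.13) and Cre08.g364000 (-0.26 ± 0.10). Median-ratio scaling gave 40 genes higher and 9 lower, and quantile scaling 33 and 13.

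Both strains thus had more members raised than lowered by BV in the light under each scaling. All tested genes had the same direction on the deposited scaling, with 26.3% higher and 11.2% lower in hmox1 and 32.7% and 13.0% in WT. Their shares under the other scalings are not given, so the direction is not read as particular to the set. BV in the light called 27 genes higher in both strains, 1 lower in both, and 3 lower in hmox1 and higher in WT. These joint calls were not counted over all tested genes. The correlation of the strains' BV differences was 0.57 over the 121 genes and 0.71 over all tested genes, again as a description across genes. It too includes the 31 genes below 1 RPKM in every WT library, so the strains' agreement is not read from it.

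Some genes that rose with BV in the light had light differences of opposite sign with and without BV. The gap between these light differences equals the gap between the BV differences in light and dark. It is thus not a separate result, and it was not tested. Cre01.g000150 had 27.1 and 23.3 RPKM in the light with BV, against 8.78 and 9.28 RPKM in the dark with BV (1.38 ± 0.11 for light with BV), but 6.29 and 6.60 RPKM in the light without BV, against 8.98 and 9.71 RPKM in the dark without it (-0.47 ± 0.11 for light without BV), all in hmox1. In WT it followed the same pattern at a lower level, with light differences of 1.18 ± 0.11 with BV and -1.27 ± 0.11 without it. The call for light in hmox1 without BV was lost with median-ratio scaling. The neighbours Cre16.g657200 and Cre16.g657250 on chromosome 16 rose with BV in the light in both strains, by 0.85 ± 0.12 and 1.02 ± 0.14 log2 units in hmox1 and by 1.41 ± 0.12 and 1.58 ± 0.14 in WT.

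**Figure D5:**
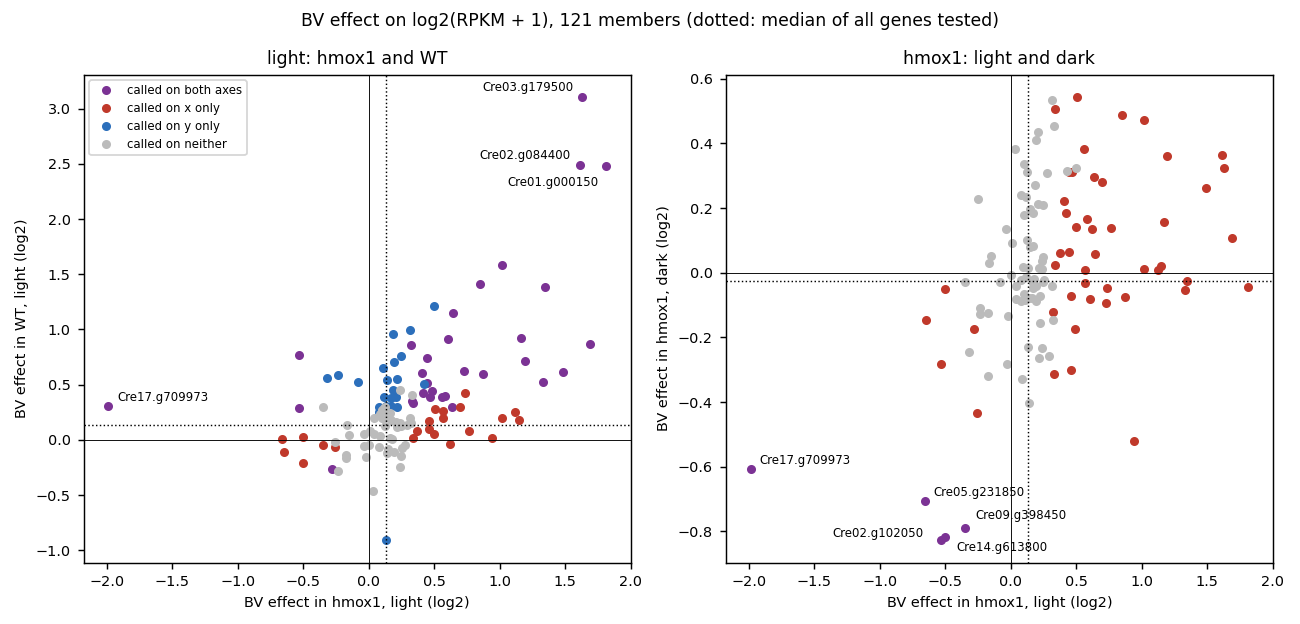
BV effect (with BV minus without, log2 of RPKM + 1) for the 121 genes, with hmox1 in the light on the x axes, WT in the light on the left y axis and hmox1 in the dark on the right y axis, coloured by which of the axes passed limma's adjusted p under 0.05; dotted lines mark the median of all tested genes. The 5 named genes at the lower left of the right panel are lower with BV in both dark and light, and Cre03.g179500, Cre02.g084400 and Cre01.g000150 stand at the upper right of the left panel.

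The set was spread over the genome with a few close neighbours. Among the 86 genes with a RefSeq position, chromosome 17 held 12 (13.95%, against 6.97% of all matched genes), chromosome 2 held 10 (11.6% against 8.24%), chromosome 6 held 9 (10.5% against 9.51%) and chromosome 12 held 5 (5.81% against 11.5%). Cre16.g657200 and Cre16.g657250, Cre17.g719400 and Cre17.g719450, and Cre03.g205500 and Cre03.g205450 are pairs with 0 genes between them in the RefSeq order, and Cre17.g717900 and Cre17.g717950 have 1 gene between them. Cre16.g657200 had 207 and 228 RPKM in hmox1 in the light with BV, 122 and 119 in the light without it, 171 and 151 in the dark with BV and 107 and 123 in the dark without it, and Cre16.g657250 had 98.2 and 112 RPKM in hmox1 in the light with BV, 49.1 and 53.4 in the light without it, 149 and 123 in the dark with BV and 90.9 and 104 in the dark without it. Cre17.g717900 had 118 to 257 RPKM in the hmox1 libraries and 37.7 to 68.3 RPKM in the WT libraries, and Cre17.g717950 had 67.6 to 95.0 RPKM in hmox1 and 15.8 to 25.7 RPKM in WT. Cre17.g719400 and Cre17.g719450 were lower, with 8.16 to 12.04 RPKM and 5.14 to 8.28 RPKM in hmox1. In the order of identifiers, 16 of the 121 genes form 8 adjacent pairs, and whether such pairs share reads, as overlapping genes or close copies would, cannot be told from the table.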

How the data were processed

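RNA of 16 libraries was sequenced as single-end 100-nt reads on a HiSeq instrument, per the labels' protocols, and Bowtie was used, per the submitters' processing notes. No version, genome build, annotation or counting method is given in the sources used here. The authors deposited 1 value per gene and library, taken here as RPKM from the values, since no header names the unit. The smallest steps between the values gave whole reads within 0.1 reads for 16852 of the 16852 genes above 0, and these reads give the depth and the read ratios. Intervals cover only the counting error of reads summed over the 4 conditions, and they do not test the strain difference, which was used for the choice.

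Groups came from the sample labels. limma 3.58.1 (R 4.3.3) was fitted to log2(RPKM + 1) on the deposited scaling, giving each group its own mean and leaving 8 residual degrees of freedom. Its moderation was robust and followed the trend with level. The fit held the 13972 genes that reached 1 RPKM in 2 libraries or more. The Benjamini-Hochberg adjustment covered all of them, separately in each of 7 comparisons. Adding 1 RPKM understates changes of low genes. Alternatives were a pseudocount of 0.1, median-ratio and quantile scaling, no filter on low values, a fit of the compared groups alone, the replicate number as a block and each library left out.

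The members and lists were chosen with earlier results of these data known. Named genes were the 10 with the largest smallest ratio, 3 genes on either side of the threshold, up to 4 called genes per direction and comparison with the largest difference, the widest and narrowest range of the ratio, and neighbours in the RefSeq order. Cre09.g396100, Cre08.g368850, Cre16.g686750, Cre05.g234900, Cre08.g364750, Cre26.g774050, Cre01.g030000, Cre10.g431250, Cre13.g590800 and the 3 genes removed for BV were named after their values were seen. Of 17301 identifiers, 12666 matched a RefSeq locus tag. The match of proteins between members was not made. No pathway list was used, since no gene names were available to build one.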

Additional observations from a re-analysis of the deposited data

Results flagged for a closer look

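For 7 members, matching light or BV comparisons both passed with opposite signs, between the strains or between cultures with and without BV, and the libraries compared did not overlap. The differences themselves were not tested, and values are log2 differences of RPKM + 1 by limma. The share of all tested genes with such opposite calls was not counted. Light called Cre17.g709973 higher in hmox1 without BV (0.96) and lower in WT without BV (-0.63), and lower in hmox1 with BV (-0.42). BV in the light gave the same gene -1.99 in hmox1 and 0.30 in WT. The WT light value turned with quantile scaling and its call was lost with median-ratio scaling, as was the call for light in hmox1 with BV, and the WT BV call was lost with both scalings.

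Cre10.g431250 was higher in the light in hmox1 without BV (0.26) and lower in WT without BV (-0.76), a WT direction that turned with quantile scaling, and BV in the light gave it -0.53 in hmox1 and 0.77 in WT. Cre02.g102050 had -0.54 with BV in the light in hmox1 and 0.29 in WT, where the WT call was lost with both scalings.

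Cre16.g657250 was lower in the light in hmox1 with BV (-0.37) and higher in WT with BV (0.42), and lower in WT without BV (-0.46). The first call was lost with median-ratio scaling and the second with quantile scaling, so the pair passed in full under neither, and the third value turned with median-ratio scaling and was not called with quantile scaling. Cre01.g000150 was higher in the light with BV and lower without it in hmox1 (1.38 and -0.47) and in WT (1.18 and -1.27), and the hmox1 call without BV was lost with median-ratio scaling. Cre03.g179500 had light differences of 1.07 with BV and -0.24 without it in hmox1, and the second turned with median-ratio scaling and was not called with quantile scaling. Cre13.g590800 had 0.48 with BV and -0.40 without it in WT, and the second turned with both scalings.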

How the results depend on the processing

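The number of genes that the choice finds, 121, depended on its settings. An offset of 0.1 RPKM gave 372 genes, of which 116 were among the 121, an offset of 5 RPKM gave 39, a ratio of at least 3 gave 40, median-ratio scaling gave 80 (79 shared), quantile scaling gave 77 (74 shared), and leaving out 1 library at a time gave 115 to 124. BV in hmox1 in the dark called 5 members, 1 with a pseudocount of 0.1 and 2 to 4 with 1 library left out. The total of members called in each other comparison, both directions together, moved by less than 1.5 times under each alternative, while the division between higher and lower moved far more with the scaling, as given beside each comparison. Shares of all tested genes are given on the deposited scaling alone, so the member counts under other scalings have none beside them. With 1 library left out, light called 72 to 77 members in hmox1 without BV, 46 to 51 in hmox1 with BV, 64 to 67 in WT without BV and 50 to 60 in WT with BV, and BV in the light called 41 to 43 in hmox1 and 42 to 50 in WT. Where leaving out a library left a group with 1 sample, that sample was assumed to vary like the other groups.

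The replicate numbers were not shown to pair the samples: the deviations of same-numbered libraries had correlations of -0.15 to 0.27 over 28 pairs of groups, and 10 passed 0.1. With the replicate number as a block, light called 82 members in hmox1 without BV, 65 in hmox1 with BV, 78 in WT without BV and 66 in WT with BV, and BV called 6 in hmox1 in the dark, 56 in hmox1 in the light and 55 in WT in the light.

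Some log2 differences of named members changed sign with the scaling, and the cause was not tested. For light in WT without BV, quantile scaling gave Cre13.g606650 0.51, Cre10.g452250 0.32, Cre13.g606675 0.44, Cre08.g364765 0.50, Cre10.g463370 0.10, Cre05.g240600 0.20 and Cre17.g718134 0.50, and median-ratio scaling gave Cre10.g463370 0.083 and Cre17.g710300 0.69. For light in WT with BV, quantile scaling gave Cre13.g606650 0.25 and Cre08.g364765 0.10, and median-ratio scaling gave Cre10.g463370 0.12. For light in hmox1 without BV, median-ratio scaling gave Cre13.g606650 0.31, Cre10.g463370 0.095 and Cre05.g240600 0.38. Depth limits the genes with few reads: at 10213543 reads, low WT levels rest on single reads.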

Other observations

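Among the 18 genes that BV lowered in dark hmox1, 3 that are not members carry identifiers close to that of the member Cre09.g398450, a grouping noticed after the values were seen. Cre09.g398250, Cre09.g398400 and Cre09.g398500 had log2 differences of -0.56, -0.50 and -0.42 (limma adjusted p = 0.0015, 0.0029 and 0.018), against -0.79 for Cre09.g398450. Their hmox1/WT ratios in the dark without BV were 2.49, 2.19 and 2.66, and each was below 2 in at least 1 other condition. Whether these genes share reads was not tested.

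Cre17.g710000, also among the 18, had a ratio of 4.66 in the light without BV and of 0.968 to 1.29 in the other conditions, a pattern whose peak is in the same condition as that of the member Cre17.g709973.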
